A study of Ictalurus punctatus with 24 samples.

Results

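The early response genes fosl1a and ier3 were followed in channel catfish (*Ictalurus punctatus*), in intestine and liver, after feeding with frass from black soldier fly larvae. The 2 genes were taken by their transcript rows from tables of 63022 features, because the study's list for the intestine of high-frass fish against control fish holds both. That comparison is therefore a description here and no test of it is given for either gene. The fosl1a row (rna-XM_017473359.3) belongs to gene 108268406 on chromosome 8 (11057756 to 11061574, assembly Coco_2.0). The ier3 row (rna-XM_017451685.3) belongs to gene 108255599 on chromosome 22 (931666 to 932843). Each gene has 1 annotated transcript, and each row is a count over its exons.

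Early response genes are transcribed soon after a cell receives a growth, stress or inflammatory signal, many of them without the need for new protein. In mammals FOSL1 (Fra-1) is a Fos family protein that pairs with a Jun protein to form the transcription factor AP-1, and its own gene is in turn induced through AP-1. IER3 (IEX-1) is a short-lived mammalian protein induced by NF-kB, p53 and growth factor signals that modulates cell death and ERK signalling. In the mammalian gut, AP-1 takes part in the renewal and repair of the epithelium.

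Fish of the Marion strain ate a control diet without frass (0 g/kg), a low-frass diet (50 g/kg) or a high-frass diet (300 g/kg) for 10 weeks. Each diet had 4 pools of fish per tissue, giving 12 intestine and 12 liver libraries. The labels give 3 fish per pool, a number that differs from the published methods, and the same pool codes mark both tissues. A library is therefore an average over fish of whole tissue, in which fewer cells of a type and less RNA per cell cannot be told apart. Intestine libraries held 12534783 to 17371695 counts, and liver libraries 10494755 to 15604418.

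Some libraries stood apart before any comparison was made. The intestine libraries fell into 6 anterior-like and 6 posterior-like libraries by clustering of 10399 features without the 2 genes, named from listed proximal and distal gut markers. Summed proximal markers were at 742 to 2996 CPM (counts scaled to library size) in the posterior-like libraries and at 20865 to 62739 CPM in the anterior-like ones. Distal marker sums overlapped, at 5889 to 8768 CPM in posterior-like and 2143 to 10477 CPM in anterior-like libraries, because control replicate 3 had both. The control diet had 2 posterior-like libraries, the low-frass diet had 1 (replicate 3) and the high-frass diet had 3 (replicates 1, 2 and 3). Diet and gut stretch are thus partly mixed. Of the liver libraries, high-frass replicate 3 and low-frass replicate 3 were left out of the comparisons, and 10 were kept. Both were also excluded by the study. It set aside the high-frass library for a low transcript integrity score and the low-frass one as an outlier by principal components. High-frass intestine replicate 3 has the same pool code (B1) as that high-frass liver library. It was kept, and the paper gives no integrity score for it. The left-out low-frass library did not carry liver markers at the level of the others: hpxa, the plasma haem carrier hemopexin, stood at 130.9 CPM, against 123600 to 220300 CPM in the other 11 liver libraries, and the gut genes slc10a2 and vil1 at 632.5 and 349.5 CPM.

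In the intestine, fosl1a was high in only 2 of the 12 libraries, both from the high-frass diet. The control libraries, replicates 1 to 4, had 3.14, 1.34, 1.12 and 0.989 CPM, scaled by the trimmed mean of M values (TMM). The low-frass libraries had 0.443, 0.688, 2.64 and 1.18 CPM, and the high-frass libraries had 51.6, 3.30, 17.7 and 1.57 CPM. High-frass replicates 1 and 3 stood above all others, while replicate 4 lay inside the control range and replicate 2 just above it. The counts behind these values were 811, 57, 347 and 19 in the high-frass libraries, and replicates 1 and 3 held 57.0% and 24.4% of all 1423 fosl1a counts in the intestine. Counting error (95% Poisson interval, which covers counting error only) spans 756.1 to 868.8 for the 811 counts and 11.44 to 29.67 for the 19.

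Mean fosl1a was 1.65 ± 1.01 CPM in control, 1.24 ± 0.982 CPM in low-frass and 18.6 ± 23.2 CPM in high-frass intestine (SD, n = 4 each), and the SD of the high-frass diet exceeded its mean. The control and low-frass diets, neighbours in this order, did not differ beyond their spread. The fitted log2 fold change of high frass against control was 3.47 with a standard error of 0.99. It was 2.20 without high-frass replicate 1 and 0.56 without replicates 1 and 3 together, so those libraries set its size.

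For ier3, the 4 high-frass libraries were close to each other and all above the 4 control libraries. The control libraries had 4.93, 3.66, 3.09 and 3.81 CPM, the low-frass libraries 2.80, 6.46, 2.84 and 3.90 CPM, and the high-frass libraries 7.39, 6.19, 8.21 and 9.72 CPM. Low-frass replicate 2 reached the high-frass range and passed high-frass replicate 2, so those diets overlapped. The means were 3.87 ± 0.769 CPM in control, 4.001 ± 1.72 CPM in low-frass and 7.88 ± 1.48 CPM in high-frass intestine (SD, n = 4 each). The fitted log2 fold change of high frass against control was 1.02 with a standard error of 0.30, and it stayed between 0.91 and 1.19 when any 1 library of either diet was left out. Of the 10401 features tested, 1.17% had high-frass libraries all above the control libraries. Nothing is read from that share for ier3, which was chosen by the same contrast. The highest ier3 library, high-frass replicate 4, was the lowest of its diet for fosl1a.

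**Figure D1:**
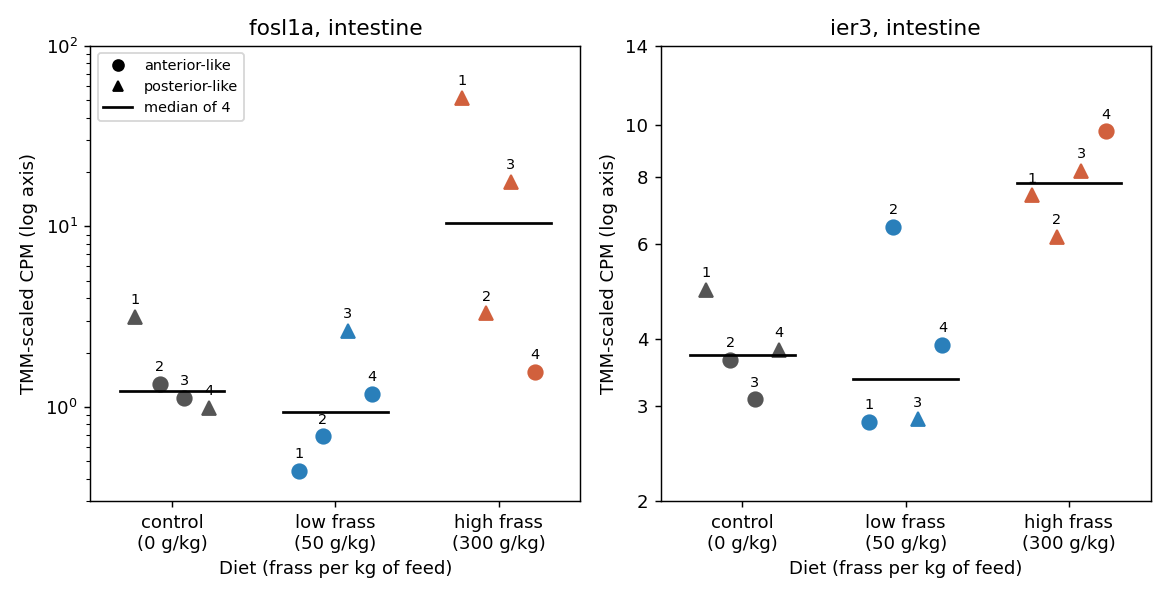
TMM-scaled CPM (log axes) of fosl1a (left) and ier3 (right) in the 12 intestine libraries by diet. Each point is 1 library with its replicate number, circles are anterior-like and triangles posterior-like, and bars are medians of 4; fosl1a stands out in high-frass replicates 1 and 3 (51.6 and 17.7 CPM), whereas ier3 lies at 6.19 to 9.72 CPM in all 4 high-frass libraries and at 3.09 to 4.93 CPM in the control libraries.

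The low-frass diet was compared with the control in the same fit, which shares its control libraries with the contrast that chose the genes. Its log2 fold change was -0.40 (standard error 0.95) for fosl1a and 0.04 (standard error 0.30) for ier3. Neither passed the test (adjusted p = 0.9996 for both, edgeR's quasi-likelihood test with Benjamini-Hochberg adjustment), and 0% of the features were called in this comparison. The low-frass libraries held 6 to 52 fosl1a counts each. Against low frass, high frass gave log2 fold changes of 3.87 (standard error 1.01) for fosl1a and 0.98 (standard error 0.30) for ier3. Both had an adjusted p of 0.567 in edgeR and did not pass, again with 0% of features called, and the high-frass libraries here are those that chose the genes. With DESeq2's Wald test the fosl1a difference from low frass had an adjusted p of 0.0130, and without high-frass replicates 1 and 3 its log2 fold change in edgeR was 0.97.

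By gut stretch, with the diets mixed, fosl1a had its highest values in posterior-like libraries. The 6 posterior-like libraries ran from 0.989 to 51.6 CPM with a median of 3.22 CPM, and the 6 anterior-like ones from 0.443 to 1.57 CPM with a median of 1.15 CPM. No anterior-like library of any diet exceeded 1.57 CPM, and both high libraries were posterior-like. The control diet held no such order, as its posterior-like libraries had 3.14 and 0.989 CPM and its anterior-like ones 1.34 and 1.12 CPM. Among posterior-like libraries alone, the mean log2 level of fosl1a was 2.72 higher in the 3 high-frass libraries than in the 2 control libraries. Among anterior-like libraries the difference was 0.26, from 1 high-frass library against 2 controls. For ier3 the corresponding differences were 0.67 in posterior-like and 1.40 in anterior-like libraries, so it was higher with high frass in both stretches. With the stretch as a block in the fit, high frass against control gave 2.69 for fosl1a and 1.04 for ier3. These splits hold 1 to 3 libraries per diet and carry no test.

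Across the 12 intestine libraries, fosl1a and ier3 had a Pearson r of 0.54 and a Spearman rho of 0.54 on log2(CPM + 0.5). This value is a description, since both genes were chosen for being higher in the same 4 libraries. After the mean of each diet was removed, r was -0.082 (exact permutation of libraries within diets, two-sided, p = 0.785, adjusted p = 0.942) and rho was 0.0070 (exact permutation p = 0.990, adjusted p = 0.990), over 6 tests in all. No relation within diets was detectable, and its sign depended on the scaling, as r was 0.35 when library totals replaced TMM. Leaving out high-frass replicates 1 and 3, the libraries farthest from the median of fosl1a, changed the pooled r to 0.23 and rho to 0.32.

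Within the gut stretches, r was 0.76 and rho 0.89 over the 6 posterior-like libraries, and r was 0.42 and rho 0.60 over the 6 anterior-like libraries. These values still hold the diet differences by which the genes were chosen, since 3 of the 6 posterior-like libraries were from the high-frass diet, and they are given as descriptions with no p.

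**Figure D2:**
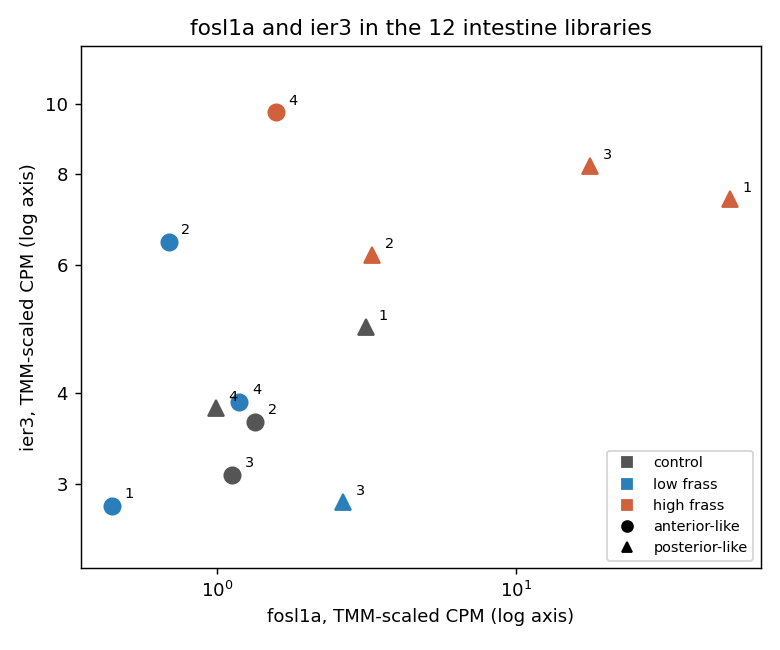
TMM-scaled CPM of ier3 against fosl1a in the 12 intestine libraries (both axes log), coloured by diet, with circles for anterior-like and triangles for posterior-like libraries and replicate numbers beside the points. The high-frass libraries lie at the top at 6.19 to 9.72 CPM of ier3 while their fosl1a runs from 1.57 to 51.6 CPM, and the pooled r of 0.54 becomes -0.082 once diet means are removed.

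The genes most like each of the 2 were also different. By Pearson r over the 12 intestine libraries after removal of diet means, among 10401 features, fosl1a was nearest to tns1b (a tensin, which links integrins to actin; r = 0.96), LOC108272639 (0.93), angptl7 (a secreted angiopoietin-like protein; 0.92), LOC108262792 (0.91) and LOC108269971 (0.91). The nearest to ier3 were LOC108269634 (0.99), hsc70 (a heat shock cognate chaperone; 0.95), lrrc4.2 (0.95), si:ch211-1a19.3 (0.95) and LOC108263160 (0.95). The median absolute r over all features was 0.40 for fosl1a and 0.31 for ier3, the libraries share their depth and gut stretch, and these highest values were picked from many. Several are sparse: tns1b had 2 to 29 counts per library. The SD of log2 fosl1a was 2.12 in high-frass, 0.59 in control and 0.75 in low-frass intestine. Its r values thus lean on the high-frass libraries.

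The AP-1 subunits were described next to fosl1a, since the protein acts only as a dimer. Of 24 listed symbols, 20 were in the annotation and 13 features passed the filter on low counts. With high frass against control, 12 of the 13 had a positive log2 fold change, with a median of 0.83 against -0.0044 over all 10401 features, and 0.75 over the 12 without fosl1a. None was called (0% of all features). Of the 12 without fosl1a, 5 were higher at an unadjusted p under 0.05 in edgeR, against 1.81% of all features. The list is not independent evidence, because the study's list for this contrast also holds fosab and junbb beside fosl1a. The 5 were fosab, jdp2b, junbb, jund and atf3. With the diets mixed, jund was also higher in every posterior-like library than in any anterior-like one. Counted with fosl1a the number was 6, and it was 2 without high-frass replicate 3 and 0 without high-frass replicates 1 and 3 together. Those libraries were left out after their values were seen. Fewer libraries alone make the threshold harder to pass, so no conclusion is drawn from the fall.

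The rows counted for the Fos family differed from each other. The paralogue fosl1b had 3.76, 5.26, 3.31 and 6.10 CPM in high-frass intestine, against 5.15, 4.28, 4.21 and 5.02 CPM in control intestine (log2 fold change -0.02, standard error 0.28). These values overlap and lie close together, whereas those of fosl1a overlap but are spread widely in the high-frass diet. The fosl1b row is a noncoding transcript model of a gene with 2 annotated transcripts. Reads in shared exons can be lost, so the level of the coding transcript is not known from it. The classical c-Fos gene fosab had 41.9, 10.1, 361 and 10.2 CPM in high-frass intestine, against 10.9, 15.5, 7.17 and 4.87 CPM in control intestine. Its log2 fold change of 3.46 (standard error 1.07) came mainly from high-frass replicate 3, the library second highest for fosl1a. Gene fosl2, encoding Fra-2, had 88.8, 75.2, 105 and 36.0 CPM with high frass, against 56.1, 46.0, 50.3 and 50.9 CPM in control, so 3 of 4 libraries were higher (log2 fold change 0.59, standard error 0.28). Those higher libraries were the posterior-like ones of the high-frass diet, and its anterior-like replicate 4 lay below the controls.

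Among the Jun partners, junbb had 191, 132, 225 and 83.1 CPM in high-frass intestine, against 86.4, 70.5, 64.6 and 38.6 CPM in control intestine (log2 fold change 1.28, standard error 0.39). Its high-frass replicate 4 was below control replicate 1, so the diets overlapped. Gene jund had 243, 157, 452 and 121 CPM with high frass, against 156, 110, 115 and 142 CPM in control (0.89, standard error 0.37), again highest in replicate 3. With the diets mixed, all posterior-like libraries (142 to 452 CPM of jund) lay above all anterior-like ones (109 to 121 CPM). Diet and gut stretch are thus mixed in its fold change. The paralogue junba had 16.0, 5.67, 11.1 and 2.47 CPM with high frass, against 5.69, 1.70, 6.32 and 5.16 CPM in control (0.90, standard error 0.56). Highest in all 3 Jun genes were high-frass replicates 1 and 3, the same libraries as for fosl1a.

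Other dimer partners differed in which library was high. The repressor jdp2b had 4.59, 2.55, 92.4 and 2.80 CPM in high-frass intestine, against 2.167, 3.03, 2.83 and 2.26 CPM in control intestine, so its log2 fold change of 3.32 (standard error 1.09) rested on replicate 3. The stress-induced atf3 had 48.7, 41.9, 66.9 and 32.8 CPM with high frass, against 40.4, 24.8, 34.8 and 19.6 CPM in control (0.67, standard error 0.27). The small Maf protein gene maff was highest in high-frass replicate 1, at 4.90 CPM, and lowest in high-frass replicate 2, at 0.52 CPM (0.43, standard error 0.58). The BATF genes, which act mostly in lymphocytes and myeloid cells in mammals, had log2 fold changes of 0.50 (batf), 0.83 (batf2) and 0.22 (batf3), with standard errors of 0.56, 0.95 and 0.19. With the diets mixed, batf2 was at 0.848 to 5.03 CPM in posterior-like and 0.0738 to 0.494 CPM in anterior-like libraries. For batf these ranges were 5.23 to 15.2 and 1.48 to 6.91 CPM, so diet and gut stretch are mixed in both fold changes. With diet means removed, fosl1a varied most closely with maff (r = 0.85), fosl2 (0.78), batf (0.75) and junba (0.75), and least with batf3 (0.12) and fosl1b (-0.36). The rows of maff and fosl1b each belong to a gene with 2 annotated transcripts. The SD of log2 fosl1a was 2.12 in high-frass, 0.59 in control and 0.75 in low-frass intestine. These r values thus lean on the high-frass libraries.

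**Figure D3:**
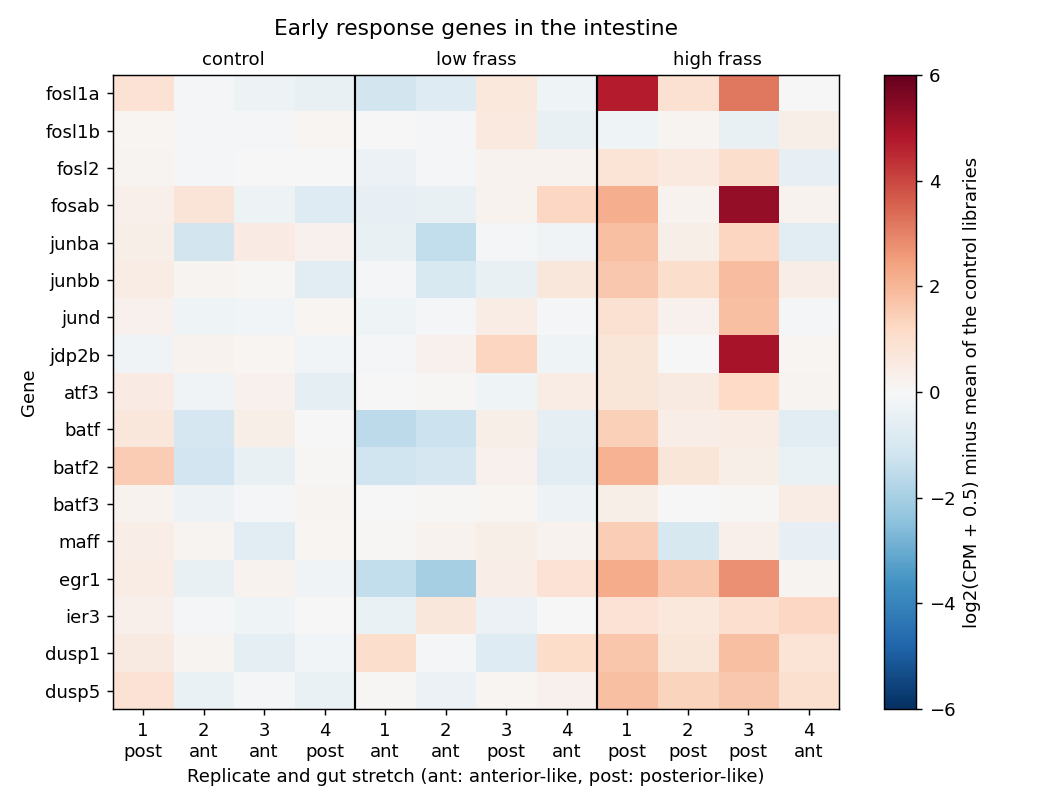
Level of 13 AP-1 subunits and of egr1, ier3, dusp1 and dusp5 (rows) in the 12 intestine libraries (columns by diet and replicate, with the gut stretch), as log2(CPM + 0.5) minus the mean of the control libraries. High-frass replicates 1 and 3 are red in most rows, and fosab and jdp2b are strongest in replicate 3 (361 and 92.4 CPM). The rows of fosl1b (a noncoding transcript model) and batf3 stay near the control level.

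Summed over the list, AP-1 subunits stood at 734 CPM in high-frass replicate 1 and 1362 CPM in replicate 3, and at 264 to 455 CPM in the other 10 intestine libraries. Marker sums of other cells in the same libraries were compared. T and NK cell markers summed to 27.0 to 84.0 CPM in high-frass intestine, against 18.3 to 60.2 CPM in control intestine, highest in replicate 1, with il2rb at 0. With the diets mixed, they summed to 39.1 to 84.0 CPM in posterior-like and 18.3 to 32.2 CPM in anterior-like libraries. Diet and gut stretch are thus mixed in these sums. Erythrocyte markers summed to 25.9 to 67.1 CPM with high frass, against 17.5 to 35.4 CPM in control, highest in replicate 3, with alas2, hbae5 and slc4a1a at 0. Macrophage and granulocyte markers summed to 199.7 to 416.9 CPM with high frass, against 103.6 to 371.7 CPM in control, with csf3r at 0. The erythrocyte sums and the macrophage and granulocyte sums overlapped between the gut stretches. In each of these 3 lists 4 features had counts in the intestine, and their part in the fosl1a and AP-1 values was not tested. Hepatocyte markers summed to 18.1 to 187.6 CPM with high frass, against 8.69 to 47.9 CPM in control, with replicate 3 the lowest of its diet. Pancreas acinar markers were at 15189 CPM in high-frass replicate 4, the library highest for ier3, and at 13.7 to 21.97 CPM in the other high-frass libraries, against 11.1 to 5177 CPM in control intestine. By gut stretch they ran from 19.9 to 15189 CPM in anterior-like libraries and reached at most 25.8 CPM in posterior-like ones.

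The list of other early response genes, which holds ier3, had 35 features that passed the filter. With high frass against control, 9 of the 34 without ier3 were higher and 0 lower at an unadjusted p under 0.05 in edgeR, against 1.81% and 1.03% of all features, and their median log2 fold change was 0.38. None was called. The study's list for this contrast holds egr1 as well as ier3, so the count is not independent evidence. The 9 were ier2a, ier5, egr1, egr2a, klf2a, klf2b, ccn1, ccn2a and gadd45aa. In this list only ier3 and klf2a, a shear-responsive factor of endothelium in mammals, had all 4 high-frass libraries above all 4 controls. Of all features, 1.17% did, and ier3 was chosen by this contrast. The zinc finger factor gene egr1 had 350, 234, 511 and 84.6 CPM in high-frass intestine, against 103, 54.5, 86.4 and 65.3 CPM in control intestine (log2 fold change 1.93, standard error 0.65). It was again highest in replicates 1 and 3, and within diets its r was 0.67 with fosl1a and -0.36 with ier3. Counted with ier3 the number was 10, and it was 5 without high-frass replicate 3 and 2 without replicates 1 and 3 together. Here too, fewer libraries alone can lower the number.

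Feedback regulators switch off the signals that induce early genes. Those listed, mostly of MAPK and NF-kB signalling but with cish and the SOCS genes of cytokine signalling, had 23 features tested. With high frass against control, 3 were higher (dusp1, dusp5 and cish) and 3 lower (dusp6, spry4 and spred2a) at an unadjusted p under 0.05, against 1.81% and 1.03% of all features, with 0 called and a median log2 fold change of 0.08. The phosphatase gene dusp5 had 44.3, 31.6, 38.9 and 24.4 CPM in high-frass intestine, against 22.8, 9.37, 11.7 and 9.18 CPM in control intestine (1.39, standard error 0.31), with no overlap. Gene dusp1, whose product inactivates p38 and JNK, had 314, 163, 344 and 175 CPM with high frass, against 142, 111, 67.2 and 87.6 CPM in control (1.29, standard error 0.44), also with no overlap. Like ier3, both were higher in replicate 4 too, and both are in the study's list. Among the listed feedback regulators, cish also lay wholly above the controls. Of all features, 1.17% lay wholly above. Of 11 listed AP-1 target genes tested, 1 was higher (mmp14a), beside 1.81% of all features, with a median of 0.07, and of 9 stress and heat shock genes none was past that threshold in either direction, with a median of -0.02.

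In the intestine, with low frass against control, no feature of the 5 lists was higher or lower at an unadjusted p under 0.05, beside 0.413% and 0.625% of all features. The AP-1 median was -0.0029 and the median of the other early response genes 0.03. With high frass against low frass, 8 of the 12 AP-1 subunits without fosl1a and 9 of the 34 other early response genes without ier3 were higher and none lower, against 5.11% and 3.46% of all features, with 0 called. Their medians were 1.08 and 0.45. Counted with fosl1a, the AP-1 number was 9, and it was 3 with gut stretch as a block and 0 without high-frass replicates 1 and 3. Fewer libraries alone can lower that last number. The 3 comparisons share libraries in pairs, so each was read on its own.

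In liver, fosl1a was at the limit of detection. Counts were 1, 0, 1 and 0 in control, 1, 0 and 1 in the kept low-frass libraries and 1, 1 and 0 in the kept high-frass libraries. All are at or under a floor of 3 counts, so no fold change between diets is given. The left-out low-frass replicate 3, the library without a liver marker profile, had 21 counts, and the left-out high-frass replicate 3 had 0.

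In liver, ier3 had fewer counts with high frass than with control, whereas it had more in the intestine. Counts were 8, 7, 20 and 13 in control, 11, 10 and 11 in low-frass and 5, 7 and 2 in high-frass libraries. The means were 0.916 ± 0.318 CPM in control (SD, n = 4), 0.799 ± 0.0631 CPM in low-frass and 0.375 ± 0.189 CPM in high-frass liver (SD, n = 3 each). The 3 kept high-frass libraries (0.157 to 0.490 CPM) were all below the 4 controls (0.555 to 1.28 CPM), as were those of 2.94% of 7213 features tested. The log2 fold change of high frass against control was -1.29 with a standard error of 0.51. It did not pass the test (unadjusted p = 0.0284, adjusted p = 0.936 in edgeR), with 0% of features called and 3.15% lower at an unadjusted p under 0.05. With all 12 liver libraries, which adds both left-out libraries at once, it was -0.84. The left-out high-frass replicate 3, which the study set aside for low transcript integrity, stood at 1.01 CPM, inside the control range. Low frass against control gave -0.21 (standard error 0.47, adjusted p = 0.9997 in edgeR) and high frass against low frass -1.07 (standard error 0.54, adjusted p = 0.9998 in edgeR).

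In liver, the listed genes past the unadjusted threshold were few and went in both directions. With high frass against control, of 7 AP-1 subunits tested 1 was lower (junbb, log2 fold change -1.67) and none higher, with a median of -0.24, and of 28 other early response genes only ier3 was lower and none higher, with a median of 0.05, against 3.15% of all features lower and 2.04% higher. Of 8 stress and heat shock genes 2 were higher (the chaperone genes hsp90aa1.2 and hspa5) and none lower, with a median of 0.39. No feedback regulator or AP-1 target gene was past that threshold, and none of the 5 lists had a called feature. With low frass against control, the AP-1 target gene mmp9 was higher at an unadjusted p under 0.05 in edgeR (log2 fold change 1.84). No other feature of the 5 lists was past it, beside 89 of 7213 features higher and 105 lower. Whether ier3 responds differently in the 2 tissues was not tested.

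Between tissues, fosl1a was higher in the intestine than in the liver of control fish. The 4 control intestine libraries held 104 fosl1a counts and the 4 control liver libraries 2, a ratio of 52.8 per library total (95% interval 14.25 to 441.8, counting error only). Scaled by TMM over both tissues, mean fosl1a was 0.888 CPM in control intestine and 0.0768 CPM in control liver. That is a smaller difference, so its size depended on the scaling. The fosl1a row passed the filter on low counts only through the intestine, so no test of this difference is given. For ier3 the controls held 233 intestine counts and 48 liver counts, a ratio of 4.93 (3.60 to 6.87). In a fit over both tissues with TMM scaling its log2 fold change was 0.23 (SE 0.34, adjusted p = 0.585 in edgeR). In that fit 48.9% of 10895 features were called, 31.1% higher in intestine, and the median over all features was 0.36. For ier3 the value was 2.33 (adjusted p = 1.62e-05 in edgeR) by library totals, so its tissue difference depended on the scaling.

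**Figure D4:**
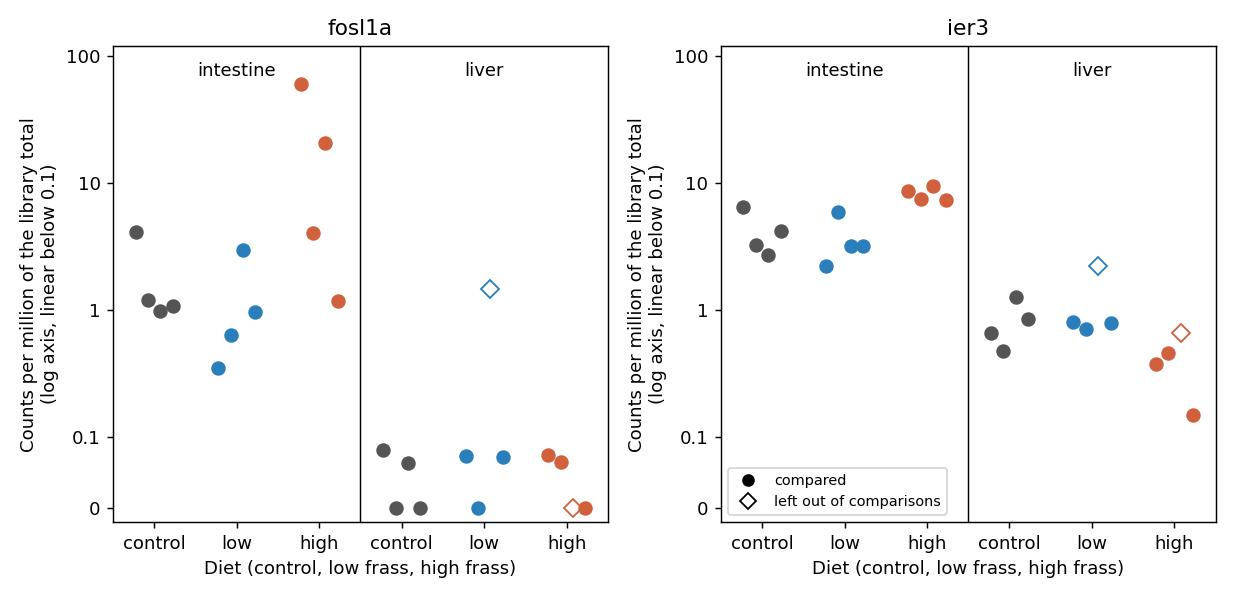
Counts scaled to CPM of the library total (log axis, linear below 0.1) of fosl1a and ier3 in 12 intestine and 12 liver libraries by diet. Filled circles entered the comparisons and open diamonds are the 2 liver libraries left out. Gene fosl1a is at 0 or 1 count in every kept liver library. Gene ier3 was lowest in the kept high-frass liver libraries, at 5, 7 and 2 counts, while the left-out high-frass one stood at 0.667 CPM, inside the control range.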

How the data were processed

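Total RNA of pooled intestine and liver was sequenced after poly(A) selection. The deposited tables hold raw counts, which the authors made by trimming reads with Trimmomatic 0.38, aligning them to Coco_2.0 with STAR 2.7.8a and counting exons by parent transcript with HTSeq 0.9.0, without strand and in union mode. Reads in exons shared by transcripts of a gene overlap more than 1 parent and can be lost: in the 5 gene lists, 82 of 90 genes with 1 annotated transcript passed the filter on low counts, and 9 of 35 with more. Without strand, reads of overlapping antisense genes cannot be told apart. No library was a copy of another.

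The fits used R 4.3.3 and edgeR 4.0.16 (quasi-likelihood test, TMM, filterByExpr with a minimum of 10 counts), with the 3 diets of a tissue in 1 fit, and 22 libraries in 6 groups for the comparison of tissues. This left 10401, 7213 and 10895 features. A feature was called at an adjusted p (Benjamini-Hochberg) under 0.05 and a fold change above 2. The pipeline was tested on simulated counts. Levels of a library are given as CPM after TMM scaling, and 0.5 was added before log2 was taken. Correlations were tested by exact permutation, two-sided. P-values measure the spread between pools. Standard errors of fold changes are the absolute log2 fold change divided by the square root of the F statistic of edgeR's test. In the contrast that chose the genes they are a description only. Listed symbols were matched to RefSeq's Coco_2.0 annotation.

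The genes, lists and tests were chosen with earlier results of these data known. Named were fosl1a, ier3, every AP-1 subunit past the filter, egr1, dusp1, dusp5, and the 5 features most like each of the 2 genes; other listed genes were named after their values were seen. Alternatives were DESeq2 1.42.0 and its size factors, no filter, only the groups compared, replicate number, pool code or gut stretch as a block, all 12 liver libraries, other pseudocounts, Ward clustering and each replicate left out. Added after seeing the data were values within a gut stretch, high-frass intestine without replicates 1 and 3, the lists without each replicate, and library totals between tissues. Replicate numbers were not used to pair samples in the main fits. Same-numbered libraries had an r of -0.71 to 0.519 in the intestine and -0.239 to 0.331 in the liver after removal of diet means. In the intestine r was positive where the gut stretches matched and negative where they differed, so it cannot show whether pools were paired. Intestine and liver of the control pools share pool codes, with an r of -0.0679 to -0.013. The raw reads were not analysed here.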

Additional observations from a re-analysis of the deposited data

Results flagged for a closer look

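Among 53 groups of 4 libraries, 4 held 1 library far from the others, and chance gives about 1 in 20. Gene fosl1a stood at 3.14 CPM in control intestine replicate 1, against 0.989, 1.12 and 1.34 CPM in the other control libraries. In high-frass intestine replicate 3, jdp2b stood at 92.4 CPM, against 2.55, 2.80 and 4.59 CPM, and fosab at 361 CPM, against 10.1, 10.2 and 41.9 CPM. In low-frass intestine replicate 3, a posterior-like library, jund stood at 177 CPM, against 109, 118 and 120 CPM in its anterior-like companions.

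The log2 fold change of ier3 with high frass against control was -1.29 in liver and 1.02 in intestine, with every kept liver library below and every intestine library above its controls. Of all features tested, 2.94% lay wholly below in liver and 1.17% wholly above in intestine. The liver gap was narrow, as high-frass replicate 2 and control replicate 2 each held 7 ier3 counts. High-frass liver replicate 3, left out, was at 1.01 CPM, inside the control range. The difference between the tissues was not tested, and the intestine value is the one by which ier3 was chosen.

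The low-frass liver replicate 3, left out of the comparisons, did not have the marker profile of the other liver libraries. It held 21 fosl1a counts and 32 ier3 counts, against 1, 0, 1 and 0 fosl1a counts and 8, 7, 20 and 13 ier3 counts in control liver.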

How the results depend on the processing

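Of 331 values recomputed under the alternatives, 284 were labelled the same, by a rule that differed between kinds of value. For most fold changes it meant the same direction and the same side of the threshold. For high frass against control in the intestine it meant a shift smaller than the SD within diets. Counts of features had to stay within a set ratio of the main count, and the correlation had only to keep its sign. DESeq2's Wald test called 1 feature for low frass against control, 2 for high frass against control and 12 for high against low frass in the intestine, and in the liver 5 for high frass against control and 1 for high against low frass, where edgeR called 0. It gave fosl1a a log2 fold change of 3.90 for high against low frass in the intestine (adjusted p = 0.0130). That contrast reuses the high-frass libraries by which the gene was chosen, so this p is not independent evidence. At an unadjusted p under 0.05 edgeR had 108, 295 and 891 features in the 3 intestine comparisons (low against control, high against control, high against low) and 194, 374 and 169 in the liver. Without the filter on low counts, 60, 133 and 71 features were called in the 3 liver comparisons. In the intestine, low frass against control had ier3 at -0.022 with gut stretch as a block, and leaving out 1 replicate gave -0.30 to 0.18 for ier3 and -1.13 to 0.15 for fosl1a. High frass against control had fosl1a at 2.20 to 4.06 with 1 replicate left out, 0.56 without high-frass replicates 1 and 3 and 0.26 in anterior-like libraries, where ier3 was at 1.40. The fitted tissue difference of fosl1a, which had 0 or 1 count in each control liver library, was 2.90 to 4.07 with 1 library left out, and by library totals ier3 was at 2.33 with 9252 features called. The correlation after removal of diet means was 0.351 by library totals, 0.0394 with stretch means also removed, and -0.234 to 0.165 with 1 library left out. The cause of these moves was not tested.

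With the replicate number as a block, high frass against control in the intestine had 3 AP-1 subunits and 5 other early response genes past an unadjusted p under 0.05, high against low frass 5 and 6, and high against low frass in the liver 1 called feature; fosl1a was at 2.79 and ier3 at 1.03 in high frass against control. With the pool code as a block, the tissue difference of ier3 was 0.19. Neither block changed a call of ier3, or of fosl1a between diets. With 1 replicate left out, AP-1 subunits past that threshold numbered 2 to 9 in high frass against control and 4 to 10 in high against low frass, and other early response genes 5 to 11 and 6 to 14. Counts of 0 to 20 limit ier3 and fosl1a in liver.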
